A study of Drosophila melanogaster with 23 samples.

Results

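The passage of the embryo from maternal RNA to its own transcripts was described here by setting the first 2 hours after egg laying against the next 3. The material was whole staged embryos of the Drosophila melanogaster strain y; cn bw sp, laid in population cages, collected for 1 hour at a time and aged, with no treatment and no genetic change between groups. The libraries were assigned by collection window: 2 of them (0-1 h and 1-2 h) form the 0-2 h block and 3 libraries (2-3 h, 3-4 h and 4-5 h) form the 2-5 h block, which is 5 of the 23 libraries of the second replicate time series. Each window has 1 library, so the successive windows of a block stand in for replicates, and the spread within a block holds developmental change as well as error. RNA 5' ends were measured with RAMPAGE, which sequences cDNAs that reach the cap and so places the start of each transcript. The readouts are transcription start site clusters (TSCs), groups of neighbouring start sites treated as promoters, and genes, each the sum of its TSCs, in RPM, the reads of a feature relative to all TSC reads of its library, scaled to a fixed total. RPM is a share, so a level that falls here may be fewer molecules or a smaller part of a larger pool, and in whole embryos fewer cells with a transcript cannot be told apart from less transcript per cell.

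As background, the fly egg is loaded by its nurse cells with RNA that directs egg activation, the body axes, the germ plasm and the first nuclear divisions. At the maternal-to-zygotic transition much of this RNA is degraded and the zygotic genome is switched on, with the pioneer factor Zelda opening many early promoters. The nuclei of the syncytial blastoderm are then enclosed by membrane at cellularization, while gap, pair-rule and segment polarity genes subdivide the anterior-posterior axis and the Dorsal gradient sets up mesoderm, neurogenic ectoderm and dorsal ectoderm. At gastrulation the mesoderm invaginates. Many of the earliest zygotic genes are short and lack introns.

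The 0-2 h libraries held 8263691 and 14705005 reads and the 2-5 h libraries 1275416, 1823635 and 787574. A single read was worth 0.068 to 0.121 RPM at 0-2 h and 0.548 to 1.27 RPM at 2-5 h, and 3 reads, the limit that a count of 0 allows, came to 3.81 RPM in the shallowest library. These limits cover counting error only. Over the 6447 genes tested, log2(RPM + 1) correlated at 0.98 between the libraries of 0-2 h, at 0.79 to 0.91 within 2-5 h and at 0.67 to 0.88 across the blocks, the highest of these being 1-2 h with 2-3 h. These correlations are across genes, which are not independent replicates. Defining maternal markers were present: bcd, whose protein patterns the anterior, was at 461, 512, 234, 161 and 142 RPM in the 5 windows in order, and osk, which assembles the germ plasm, was at 803, 655, 292, 46.1 and 27.9 RPM. Of the follicle cell and eggshell markers, 3 of 23 were matched in the table, most yolk, chorion and vitelline membrane gene names having no match, and these 3 summed to 1.33 and 1.90 RPM at 0-2 h. They do not stand for the whole list. Markers of much older embryos were not at 0 in the youngest: 13 late cuticle genes summed to 260 to 344 RPM at 0-2 h and 268 to 773 RPM at 2-5 h, against 152359 RPM in the highest of the 23 windows. The part of such reads in the results was not tested.

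The question of which genes were lost and gained was put to limma on log2(RPM + 1), over the genes that reached at least 10 RPM in at least 1 of the 5 libraries. A gene or TSC under 10 RPM in every library of 1 block was thus tested only through the block where it is high. For such members the filter itself favours a rise or a fall. List medians, call shares and counts of genes whose blocks do not overlap hold this. Of 6447 genes, 143 (2.22%) fell and 53 (0.822%) rose at 2-5 h, at a Benjamini-Hochberg adjusted p under 0.05. In all 196 the blocks did not overlap. Falls ranged from 1.45 to 6.05 on the log2 scale in size with a median log2 fold change of -2.78, and rises from 1.93 to 3.87 with a median of 3.17. The median over all genes tested was -0.29, and every fold change here is to be read against that shift, which was -0.17 under TMM scaling. All 3 libraries of 2-5 h lay above both of 0-2 h in 19.4% of the genes tested and below both in 32.6%. The calls were marginal, with adjusted p values of 0.0353 to 0.04999. They depended on the libraries: without 2-3 h limma called 1552 genes lower and 773 higher, and without any other single library it called 0, with 687 to 1738 genes still at an unadjusted p under 0.05. Without 0-1 h or 1-2 h the 0-2 h block is 1 library, which is then assumed to vary like those of 2-5 h. With TMM scaling limma called 4 genes, all lower. edgeR's quasi-likelihood test on the recovered reads, with TMM, called 318 genes lower (4.93%) and 197 higher (3.06%), and these held all 196 limma calls.

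**Figure D1:**
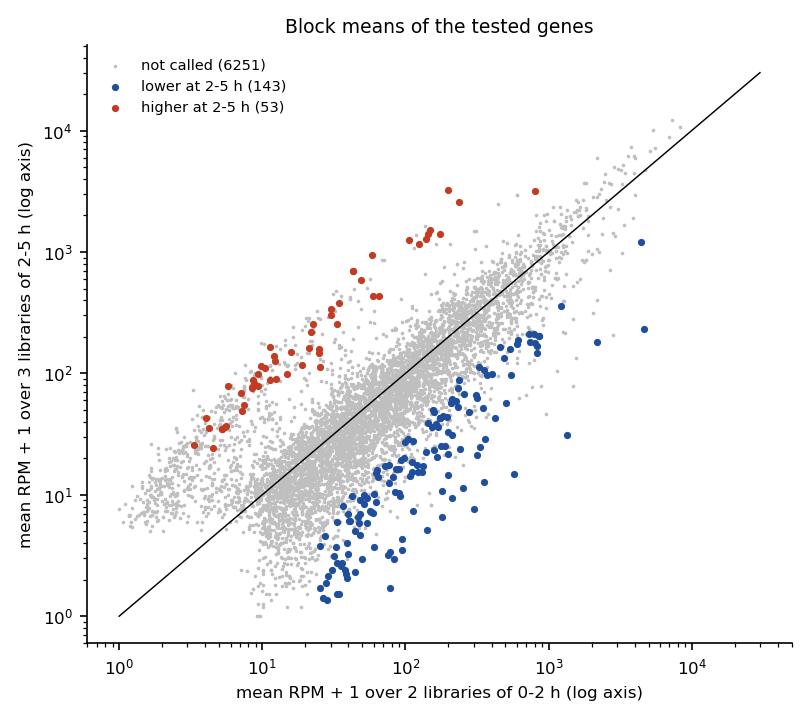
Mean RPM + 1 of each of 6447 tested genes over the 2 libraries of 0-2 h (x axis) and the 3 libraries of 2-5 h (y axis), both on log axes, with the line of equality. The 143 genes called lower (blue) and the 53 called higher (red) by limma lie at both edges of the cloud, and many uncalled genes (grey) lie among them.

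The 10 largest losses were of RNAs present at both early times that were much lower by 2-3 h. Gapdh2, a glyceraldehyde-3-phosphate dehydrogenase of glycolysis, was at 1706, 989, 39.99, 30.7 and 19.0 RPM in the 5 windows in order. Its 3 late libraries lay far below both early ones (log2 fold change -5.45 ± 0.42, SE; limma adjusted p = 0.0353). BicC, an RNA-binding protein of the oocyte that controls translation, was at 639, 511, 28.2, 9.87 and 3.81 RPM (log2 fold change -5.64 ± 0.73, SE; adjusted p = 0.0464). Its main TSC lay at 2L:16042686-16042940 in release 5 of the fly assembly, the build of the deposited positions. The most negative log2 fold change was that of Tsp42Ef, a tetraspanin, at 354, 247, 15.7, 4.39 and 0 RPM (-6.05 ± 1.09; adjusted p = 0.0466). CG6293 was at 92.2, 62.5, 1.57, 0.548 and 0 RPM, and its 3 late values stand for 2, 1 and 0 reads, so no ratio is given for it.

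The other genes among the 10 largest falls had the same shape. Aldh, an aldehyde dehydrogenase, was at 93.9, 71.5, 0.784, 3.84 and 1.27 RPM. escl, a homologue of the Polycomb group gene esc, was at 119, 68.8, 4.70, 2.74 and 0 RPM. FBgn0015565, for which no symbol was matched, was at 276, 143, 19.6, 4.39 and 1.27 RPM. All of these were already low at 2-3 h and at 0 or 1 read at 4-5 h. CG14545 was at 442, 263, 24.3, 8.23 and 2.54 RPM. CG6927 was at 206, 155, 11.8, 4.94 and 0 RPM. CG14931 was at 179, 103, 6.27, 4.94 and 1.27 RPM. In each of the 10 genes the blocks were well apart. Over the 143 genes that fell, the median level left was 15.6% of the 0-2 h mean at 2-3 h, with quartiles of 9.03% and 23.3%. It was 11.3% at 3-4 h and 13.5% at 4-5 h. The calls rest on these same levels, so the percentages are a description.

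**Figure D2:**
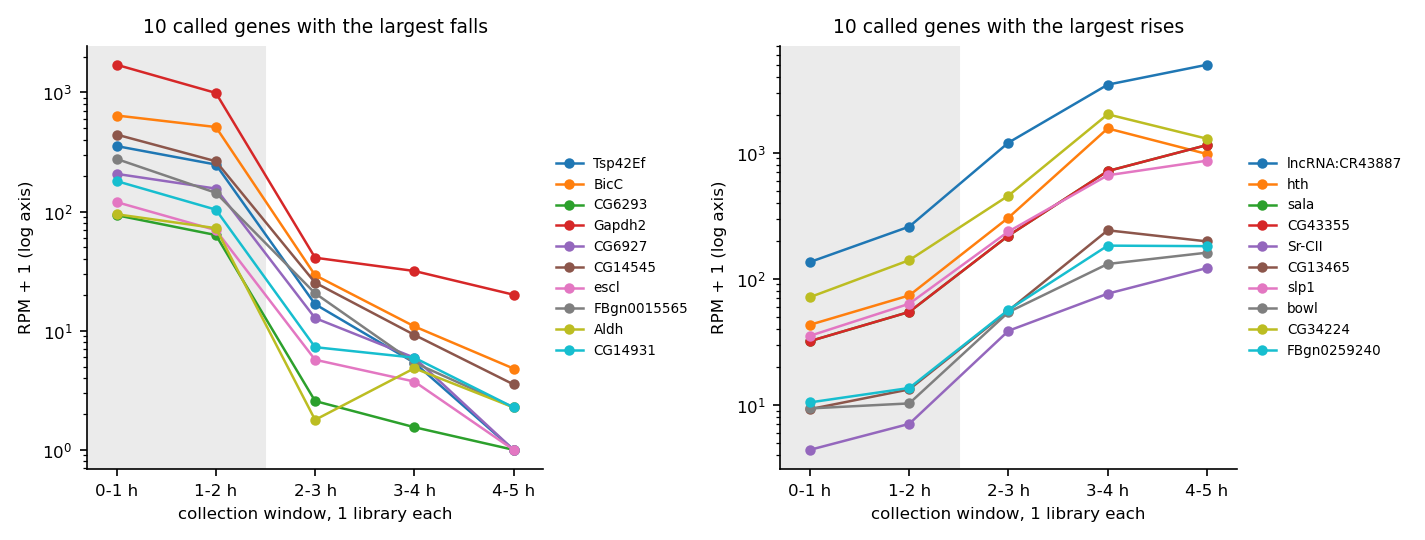
RPM + 1 on a log axis by collection window, 1 library per point, for the 10 called genes with the largest falls (left) and the 10 with the largest rises (right). The 0-2 h windows are shaded. Gapdh2 goes from 1706 to 19.0 RPM and lncRNA:CR43887 from 135 to 4986 RPM, and the lines of sala and CG43355 coincide.

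Of 18 tested maternal axis and egg activation genes 1 fell, beside 2.22% of all genes. The list's median log2 fold change was -1.44 against -0.29 for all genes, and in 10 of 18 all late libraries were below both early ones, as in 32.6% of all genes. exu, which acts in the localization of bcd mRNA, fell. It was at 37.5, 21.6, 2.35, 0.548 and 1.27 RPM (-3.70 ± 0.66, SE; limma adjusted p = 0.0466). Each late value of exu stands for 3 reads or fewer, so the size of its fall is poorly measured. bcd missed the threshold in limma (adjusted p = 0.0567) and passed it with edgeR (adjusted p = 0.0498). nanos, the posterior determinant, was at 82.0, 65.8, 36.9, 0 and 5.08 RPM, with 2-3 h between the early and the later levels. dl, the dorsal-ventral morphogen gene, was at 55.4, 71.3, 21.2, 4.39 and 0 RPM (adjusted p = 0.102), with the same order. In other members the blocks overlapped. pum, a translational repressor, was at 323, 315, 315, 327 and 276 RPM, and stau, an RNA-binding localization factor, was at 194, 182, 212, 288 and 174 RPM.

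Among 18 tested genes of maternal translation control and RNA decay, 2 fell in both tests, BicC and png, beside 2.22% of all genes by limma and 4.93% by edgeR. The list's median was -1.11, and in 13 of 18 all late libraries were below both early ones, against 32.6% of all genes. png, a kinase of egg activation, was at 39.3, 29.9, 3.14, 1.65 and 0 RPM (-3.99 ± 0.76, SE; limma adjusted p = 0.0493). The level of png was down to 3 reads at 3-4 h and 0 at 4-5 h. Its activating partners kept more of their level at 2-3 h. gnu was at 2531, 1823, 1058, 110.2 and 44.4 RPM (adjusted p = 0.108), and plu was at 179.7, 158, 88.6, 8.23 and 6.35 RPM (adjusted p = 0.104). Neither was called. smg, whose product targets maternal RNAs for decay, was at 1249, 1082, 873, 520.4 and 432 RPM, and cup, a translational repressor, was at 732, 744, 476, 271 and 156 RPM. Both were lower in each successive late window, and neither passed a test.

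Of 10 tested germ plasm and pole cell genes 2 fell, beside 2.22% of all genes, and the list's median was -2.71. In 8 of the 10 all late libraries were below both early ones, as in 32.6% of all genes. ovo, a germline transcription factor, was at 830.1, 832, 235, 121 and 82.5 RPM (-2.64 ± 0.46, SE; limma adjusted p = 0.0464). piwi, of the piRNA pathway, was at 46.0, 34.2, 7.06, 4.39 and 3.81 RPM (-2.78 ± 0.47, SE; adjusted p = 0.0464). Both were lower in each successive late window, ovo from 235 to 82.5 RPM. Some other members spread more within 2-5 h. bru1, a repressor of osk translation, was at 1119, 1178, 248, 49.9 and 15.2 RPM (adjusted p = 0.0615). pgc, which holds back transcription in pole cells, was at 350.0, 253, 108, 41.7 and 7.62 RPM (adjusted p = 0.0951). For bru1 and pgc, as for ovo and piwi, 2-3 h lay between the early libraries and 4-5 h. Neither bru1 nor pgc was called. The blocks of tej, a piRNA pathway gene, overlapped, at 47.4, 43.2, 39.2, 51.0 and 35.6 RPM.

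Of 7 tested heat shock protein genes, 1 fell, beside 2.22% of all genes. Hsp26, a small heat shock protein, was at 5540.4, 3742, 466, 168 and 63.5 RPM (-4.73 ± 0.77, SE; limma adjusted p = 0.0464), with its main TSC at 3L:9370452-9370488. Every late library was far below both early ones. Hsp83, the fly Hsp90, was at 2085, 2021, 661, 104 and 168 RPM (adjusted p = 0.0606). Hsp27 was at 2296, 3039.7, 1908, 132 and 88.9 RPM (adjusted p = 0.145), with 2-3 h close to the early level. The list's median was -3.18 in limma's fit and -1.84 in edgeR's. Hsp22 was at 101, 123, 143, 55.4 and 55.9 RPM, and its blocks overlapped. Hsp23 was higher in all late libraries than in both early ones, at 32.8, 31.5, 55.7, 53.7 and 41.9 RPM, and was not called.

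Some further called losses were in no list and were picked from the calls after their values were seen, so they stand for themselves and not for a pathway. Gapdh1, the paralogue of Gapdh2, was at 74.2, 75.3, 3.14, 2.19 and 1.27 RPM (limma adjusted p = 0.0424). Tpi, triosephosphate isomerase, was at 71.9, 47.3, 5.49, 2.74 and 0 RPM (adjusted p = 0.04999). Pgi, glucose-6-phosphate isomerase, was at 86.8, 64.5, 7.84, 7.68 and 19.0 RPM (adjusted p = 0.049). Of these, Pgi kept 10 or more reads in each late library, and the others had 7 or fewer. SREBP, a regulator of lipid synthesis genes, was at 354, 278, 40.8, 12.1 and 7.62 RPM (adjusted p = 0.0464). Hmgs, of the mevalonate pathway, was at 187, 164, 22.0, 24.7 and 26.7 RPM (adjusted p = 0.0464). The level of SREBP went on down within 2-5 h, whereas that of Hmgs was alike in the 3 late libraries. mtrm, a Polo inhibitor of the oocyte, was at 2205, 2159.9, 369, 75.7 and 91.4 RPM (adjusted p = 0.0464). gammaTub37C, the maternal gamma-tubulin, was at 36.9, 27.3, 2.35, 1.65 and 1.27 RPM (adjusted p = 0.0464), each late value standing for 3 reads or fewer. The 1 limma call among 62 respiratory chain genes, whose median was 0.14, was a fall, beside 2.22% of all genes called lower. It was ND-ACP, the mitochondrial acyl carrier protein, at 350.2, 278, 35.3, 66.4 and 83.8 RPM (-2.40 ± 0.43, SE; adjusted p = 0.0466).

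The largest gain was that of a noncoding RNA. lncRNA:CR43887, a long noncoding RNA with a single TSC at 3L:11686227-11686252, was at 135, 258, 1201, 3466 and 4986 RPM. It had the largest log2 fold change among the calls (3.87 ± 0.63, SE; limma adjusted p = 0.0464) and was higher in each successive window. hth, a homeodomain cofactor of the Hox proteins, was at 42.1, 72.7, 304, 1557 and 975 RPM (3.78 ± 0.68, SE; adjusted p = 0.0466). At 2-3 h both stood above the early libraries but well below 3-4 h. sala and CG43355 had identical reads in every library, at 31.0, 53.5, 219, 714 and 1149 RPM, so the gain cannot be placed in either of them. Such identical rows were found for 214 of the tested genes.

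The other genes among the 10 largest rises covered a wide range of levels. CG34224 was at 70.4, 139, 456, 2016 and 1290.0 RPM. slp1, a forkhead pair-rule gene, was at 34.2, 62.3, 236, 661 and 863 RPM. CG13465 was at 8.23, 12.2, 54.9, 241 and 197 RPM. In each the 2-3 h value was between the early and the later ones. FBgn0259240, without a matched symbol, was at 9.44, 12.6, 55.7, 182 and 180.3 RPM. bowl, a zinc finger gene of the odd-skipped family, was at 8.35, 9.25, 53.3, 130.0 and 160.0 RPM. Sr-CII, a scavenger receptor, was at 3.39, 6.05, 37.6, 75.1 and 121 RPM. Of all 53 genes that rose, 31 were highest at 3-4 h, 21 at 4-5 h and 1 at 2-3 h. Their median level at 2-3 h was 43.5% of the 2-5 h maximum, and it was 5.18% at 0-1 h and 8.48% at 1-2 h. Reads of most of these genes were thus already present in the youngest library. Named after their values were seen, Ilp4, an insulin-like peptide, was at 109.8, 177, 789, 1815 and 1630.3 RPM (limma adjusted p = 0.0464), and Nrt, the adhesion protein neurotactin, was at 118, 129, 675, 1942 and 849 RPM (adjusted p = 0.0464).

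Of 12 gap and head gap genes 4 rose by limma and 7 by edgeR, beside 0.822% and 3.06% of all genes, and the list's median was 2.66. Kr, the central gap gene, was at 39.3, 90.4, 405, 286 and 599 RPM (2.76 ± 0.47, SE; limma adjusted p = 0.0464). hkb, a terminal gap gene, was at 10.0, 30.3, 118, 192 and 175 RPM (3.10 ± 0.52, SE; adjusted p = 0.0464). Every late library of both was above both early ones, and neither was highest at 2-3 h. btd, a head gap gene, was at 3.15, 5.85, 22.7, 39.5 and 43.2 RPM (adjusted p = 0.0466). kni, an abdominal gap gene, was at 2.30, 6.12, 24.3, 45.0 and 33.0 RPM (adjusted p = 0.0492). In 10 of the 12 all late libraries were above both early ones, as in 19.4% of all genes. gt, which was not called, was highest at 2-3 h, at 4.11, 8.09, 43.9, 19.7 and 17.8 RPM. tll, also uncalled, had the same order, at 10.3, 22.4, 209, 115 and 39.4 RPM. cnc had a large maternal level and was at 633, 802, 528, 123 and 69.8 RPM, lower in all 3 late libraries.

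Of 10 pair-rule genes slp1, odd and slp2 rose by both tests, beside 0.822% and 3.06% of all genes for limma and edgeR, and the list's median was 2.48. odd was at 5.20, 10.3, 56.5, 121 and 68.6 RPM (3.23 ± 0.49, SE; limma adjusted p = 0.0464). slp2 was at 1.82, 4.69, 21.2, 32.9 and 49.5 RPM (3.07 ± 0.56, SE; adjusted p = 0.0466). Both were still above the early libraries at 4-5 h. Uncalled members went down again. ftz was at 36.9, 59.2, 163, 817 and 39.4 RPM (adjusted p = 0.31). prd was at 1.21, 1.97, 8.62, 33.4 and 1.27 RPM. hry, the hairy gene, was at 11.3, 27.8, 133, 276 and 27.9 RPM. All 3 were highest at 3-4 h, and the 4-5 h values of ftz and hry fell within or near the early range. eve was highest at 2-3 h, at 12.3, 26.6, 130.2, 80.6 and 27.9 RPM. Block means do not show such a course.

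Of 10 tested segment polarity genes limma called 0 and edgeR 1 higher, beside 0.822% and 3.06% of all genes, with a list median of 2.66. ptc, the Hedgehog receptor gene, was at 28.9, 50.5, 143, 496 and 642 RPM and passed with edgeR (adjusted p = 0.0459). ci, the transcription factor of the same pathway, was at 21.5, 39.0, 73.7, 655 and 615 RPM. nkd, a Wingless antagonist, was at 72.1, 154, 333, 2276 and 653 RPM. For ci and nkd the step between 2-3 h and 3-4 h was larger than that between 1-2 h and 2-3 h. arm, the fly beta-catenin, was at 197, 213, 332, 477 and 618 RPM. en, which marks posterior compartments, was at 3.51, 12.0, 10.2, 124 and 131 RPM, with 2-3 h inside the early range.

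Of 8 tested Hox genes, with bxd counted among them, limma called 0 and edgeR 4 higher, beside 0.822% and 3.06% of all genes, and the list's median was 2.81. Antp was at 5.20, 13.3, 50.2, 239 and 235 RPM (edgeR adjusted p = 0.0456). Ubx was at 5.81, 8.64, 23.5, 101 and 182 RPM (edgeR adjusted p = 0.0487). abd-A was at 3.39, 4.35, 12.5, 49.9 and 100.3 RPM (edgeR adjusted p = 0.0487). In each the late libraries lay above the early ones, and 2-3 h was the lowest late value. The noncoding lncRNA:bxd, from the region upstream of Ubx, was at 3.87, 7.14, 17.2, 93.8 and 47.0 RPM and did not pass (edgeR adjusted p = 0.0519).

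Of 14 mesoderm and gastrulation genes limma called 2 higher and edgeR 6, beside 0.822% and 3.06% of all genes, and the median was 2.63. In 8 of the 14 all late libraries were above both early ones and in 1 below, against 19.4% and 32.6% of all genes. sna, the repressor that defines the presumptive mesoderm, was at 93.9, 183, 849, 1942 and 1053 RPM (3.19 ± 0.46, SE; limma adjusted p = 0.0464). twi, its activator, was at 11.4, 16.5, 74.5, 138 and 82.5 RPM (2.70 ± 0.42, SE; adjusted p = 0.0464). Both were above both early libraries in every late window and highest at 3-4 h. htl, an FGF receptor gene, was at 2.78, 6.12, 18.8, 93.8 and 72.4 RPM (edgeR adjusted p = 0.0472). tin, needed for heart and visceral mesoderm, was at 0.968, 3.54, 11.8, 40.03 and 71.1 RPM (edgeR adjusted p = 0.0487). CadN, N-cadherin, was at 18.9, 44.9, 117, 719 and 599 RPM (edgeR adjusted p = 0.0487). In these 3 the 2-3 h value was far below the later ones, in contrast with sna and twi. fog, the signal for apical constriction, overlapped between blocks, at 82.9, 83.4, 88.6, 73.5 and 71.1 RPM.

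Of 14 tested neurogenic ectoderm and mesectoderm genes limma called 4 higher and edgeR 5, beside 0.822% and 3.06% of all genes, with a median of 2.80. All 14 were above both early libraries in every late window, as were 19.4% of all genes. sog, an antagonist of Dpp, was at 33.9, 33.0, 321, 605 and 216 RPM (3.34 ± 0.46, SE; limma adjusted p = 0.0464). ac, a proneural gene, was at 19.4, 22.5, 156, 154 and 347 RPM (3.22 ± 0.45, SE; adjusted p = 0.0464). l(1)sc, of the same complex, was at 12.7, 16.8, 87.0, 85.0 and 272 RPM (3.03 ± 0.58, SE; adjusted p = 0.0493). The proneural genes were highest at 4-5 h and sog at 3-4 h. D, the Sox factor gene Dichaete, was at 16.1, 32.4, 123, 119.5 and 95.2 RPM (2.24 ± 0.40, SE; adjusted p = 0.0466), nearly level over the late windows.

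In the dorsal ectoderm and amnioserosa list limma called 0 of 16 and edgeR 5 higher, beside 0.822% and 3.06% of all genes, with a median of 2.61. dpp, the BMP ligand gene, was at 4.72, 5.71, 20.4, 53.2 and 55.9 RPM (edgeR adjusted p = 0.0432). Doc1, a T-box gene, was at 3.39, 6.87, 17.2, 44.4 and 57.1 RPM (edgeR adjusted p = 0.0487). Doc3, from the same cluster, was at 5.81, 17.2, 33.7, 175 and 171 RPM and did not pass. All 3 had their lowest late value at 2-3 h. peb, a zinc finger gene of the amnioserosa, was at 6.53, 8.84, 11.0, 114 and 164 RPM. Like dpp and Doc1, it was under 10 RPM in both early libraries and was tested only through its late levels. zen, the homeobox gene that acts before them, was at 9.92, 13.4, 51.7, 46.1 and 0 RPM, with 0 reads at 4-5 h, which allows up to 3.81 RPM.

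Genes of the Bearded family and the E(spl) complex, many of them targets of Notch, had the highest median of the lists with 5 or more tested genes, 3.20 over 12. limma called 1 of them higher and edgeR 6, beside 0.822% and 3.06% of all genes. E(spl)m4-BFM, a Bearded family member, was at 16.0, 27.1, 107, 381 and 278 RPM (3.37 ± 0.58, SE; limma adjusted p = 0.0464). Brd, an inhibitor of Neuralized, was at 41.5, 92.8, 243, 848 and 1480.5 RPM (edgeR adjusted p = 0.0487). In 11 of the 12 all late libraries were above both early ones, as in 19.4% of all genes. The exception was E(spl)mdelta-HLH, a repressor of the bHLH class, at 17.9, 43.1, 5.49, 253 and 755 RPM, lowest at 2-3 h and highest at 4-5 h.

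Of 9 tested genes of X chromosome counting and sex determination, 2 rose by both tests, beside 0.822% and 3.06% of all genes for limma and edgeR, and the median was 1.36. sisA, an X-linked signal element, was at 16.0, 32.0, 167, 83.9 and 188 RPM (2.56 ± 0.49, SE; limma adjusted p = 0.0497). dpn, an autosomal repressor in the same decision, was at 2.78, 4.28, 22.7, 28.5 and 19.0 RPM (2.43 ± 0.46, SE; adjusted p = 0.0493). Both were near their maximum by 2-3 h. sc, another signal element, was highest at 2-3 h, at 5.93, 5.10, 35.3, 9.32 and 11.4 RPM. Sxl, the switch gene, had a large level from the start, at 612, 574, 263, 639 and 510.4 RPM, and its blocks overlapped.

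Of 7 dosage compensation genes limma called 1 higher and edgeR 3, beside 0.822% and 3.06% of all genes, with a median of 0.81. lncRNA:roX1, an RNA of the male dosage compensation complex, was at 116, 178, 689, 2740.1 and 1164 RPM (3.17 ± 0.58, SE; limma adjusted p = 0.0466). Its main TSC, at X:3756066-3756102, carried 97.4% of the gene's summed RPM. lncRNA:roX2, its partner, was at 2.18, 3.33, 11.0, 23.6 and 39.4 RPM (edgeR adjusted p = 0.0459). msl-2, the male-specific subunit, was at 2.66, 2.58, 8.62, 19.7 and 17.8 RPM (edgeR adjusted p = 0.0487). In all 3 each late library was above both early ones. msl-1, a subunit whose mRNA was present from the start, was at 215, 244, 272, 173 and 119 RPM, and its blocks overlapped.

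**Figure D3:**
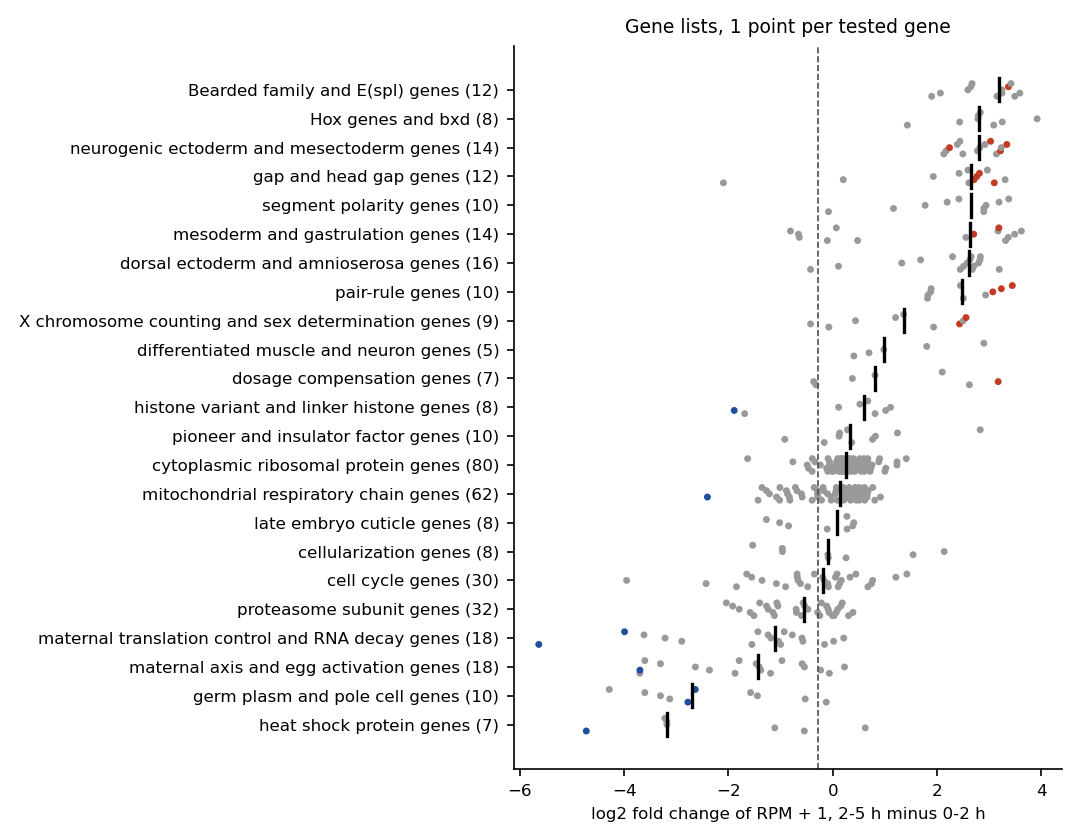
Log2 fold change of RPM + 1, 2-5 h minus 0-2 h, for each tested gene of the lists with at least 5 tested genes (number in parentheses). Black bars are list medians, from -3.18 for heat shock protein genes to 3.20 for the Bearded family and E(spl) genes, the dashed line is the median of all tested genes at -0.29, and limma calls are blue (lower) or red (higher).

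Over all genes limma called 0.822% higher and 2.22% lower, and edgeR 3.06% and 4.93%. Of 8 tested genes of cellularization 0 passed either test, and in several of them the high level lay at 2-3 h. halo, which directs lipid droplet transport, was at 284, 604, 4681, 2218 and 587 RPM. bnk, or bottleneck, which times the contraction of the furrow network, was at 191, 247, 1803, 159.6 and 3.81 RPM. nullo, which acts on the junctions of the furrow, was at 30.5, 28.6, 311, 2.74 and 0 RPM. All were highest at 2-3 h. slam, needed for the invagination of the membrane, was at 86.2, 121, 246, 42.8 and 12.7 RPM, and Sry-alpha, a regulator of cortical actin, was at 1.57, 3.40, 24.3, 15.4 and 1.27 RPM. At 3-4 h slam was below and Sry-alpha above both early libraries, and both were highest at 2-3 h. By 4-5 h nullo had 0 reads, so its 2-3 h level was at least 81.7-fold higher, taking 3 reads in that library as the floor. dia, a formin with a maternal supply, was at 185, 214, 166, 134 and 296 RPM, and its blocks overlapped. The list's median was -0.09 in limma's fit and 1.03 in edgeR's.

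A wider group with this course was defined after the values were seen: genes at least 4-fold above both early libraries, with at least 10 RPM and 10 reads, at 2-3 h and at no later time in the block. There were 36, of which limma called 0 and edgeR 0, beside 0.822% and 3.06% of all genes called higher. Of the 36, 5 had an unadjusted limma p under 0.05. At 2-3 h they were 4.02 to 16.6 times the higher early library, with a median of 8.43. At 4-5 h, 27 were below 10% of their 2-3 h level and 15 had 0 reads. Z600, an inhibitor of mitosis at gastrulation, was at 60.6, 124, 861, 370.1 and 7.62 RPM. CG13716 was at 34.7, 34.1, 488, 4.39 and 0 RPM. CG18269 was at 35.8, 31.4, 482, 4.94 and 0 RPM. The last 2 lost nearly all their reads within an hour, and Z600 took longer. dunk, a regulator of myosin at cellularization, was at 17.3, 18.2, 198, 13.2 and 0 RPM. CG13711 was at 8.23, 8.50, 141, 6.58 and 0 RPM. CG13713 was at 18.6, 18.8, 238, 33.4 and 0 RPM. The group also held gt and eve, and tsg and scw of the Dpp pathway. scw, a BMP ligand gene, was at 6.05, 5.30, 24.3, 3.84 and 0 RPM, the smallest fold of the 36.

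The structure of these 36 genes was not used to choose them. In the Ensembl annotation 27 of them (75%) have a single exon, against 8.94% of the tested genes with an annotation, and their median length was 903 bp against 2774 bp. Over the whole time course 34 had their highest level in the first 5 h, and in 26 no later window reached 10% of it. Their level at 0-1 h was 5.14 to 24.9% of that at 2-3 h, with a median of 9.63%, and at 1-2 h it was 5.64 to 23.5%, with a median of 10.4%. The source of their reads at 0-1 h was not tested.

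**Figure D4:**
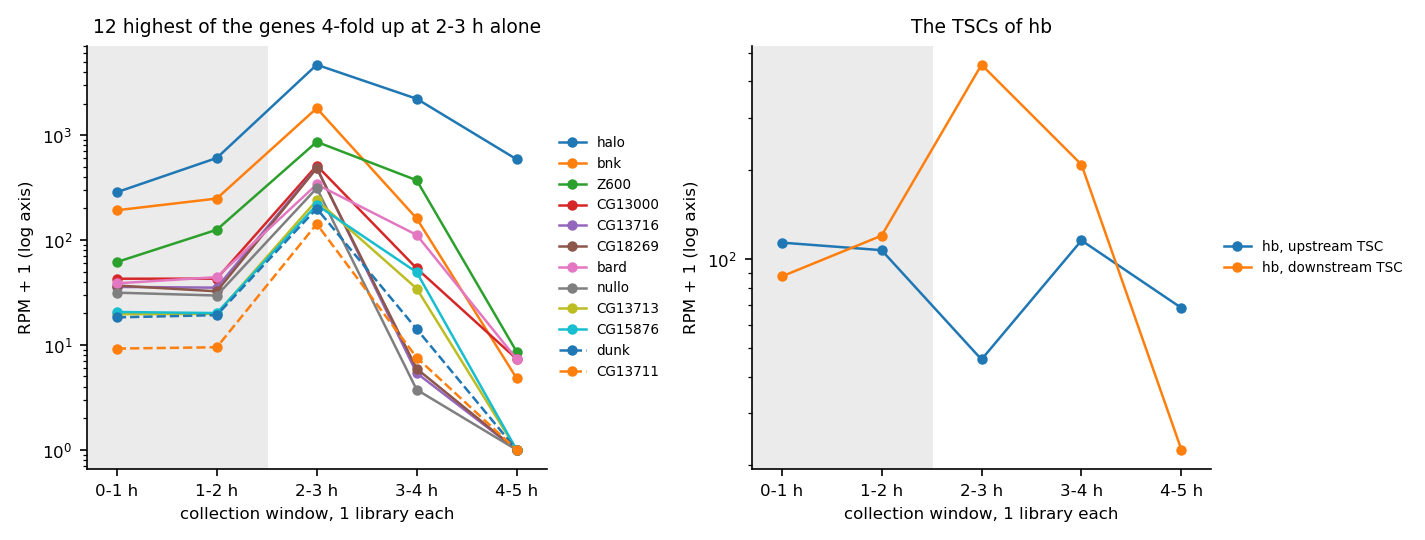
RPM + 1 on a log axis by window, 1 library per point and the 0-2 h windows shaded. On the left, the 12 most abundant of the 36 genes at least 4-fold above both early libraries at 2-3 h alone, of which nullo goes from 311 RPM at 2-3 h to 0 RPM at 4-5 h. On the right, the 2 TSCs of hb, with the downstream TSC highest at 2-3 h (454 RPM) when the upstream one is lowest (44.7 RPM).

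Counted in the same way for each window, 109 genes were at least 4-fold above both early libraries at 2-3 h, 477 at 3-4 h and 479 at 4-5 h, out of 620 in any of them. A group of 321 genes passed at 3-4 h and 4-5 h but not at 2-3 h, 51 passed in all 3, 85 at 3-4 h alone and 105 at 4-5 h alone. The 51 held sna, twi, sog, ac, l(1)sc and odd. The 85 held ftz, prd, opa, rho and Blimp-1, a zinc finger repressor gene that was at 4.96, 7.68, 0.784, 163 and 24.1 RPM. For losses the base was the 3303 genes with at least 40 RPM in both early libraries. Of these, 215 were at least 4-fold below both at 2-3 h, 364 at 3-4 h and 367 at 4-5 h, and 78 were so in all 3 windows. Another 169 were this low at 3-4 h and 4-5 h but not at 2-3 h, among them gnu, osk, cad and Hsp27. With 1 library for each window these counts are a description.

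In the cell cycle list (30 tested) limma called 0 genes and edgeR 2 lower, beside 2.22% and 4.93% of all genes lower, and the median was -0.18. CycA was at 3838, 4187, 5139, 2468 and 1237 RPM, and CycE was at 1008, 995, 913, 1197 and 1027 RPM. E2f1, an activator of S phase genes, was at 2033, 2482, 1743, 632 and 613 RPM. Dp, its partner, was at 601, 752, 949, 539 and 781 RPM. The blocks of CycA, CycE and Dp overlapped, and those of E2f1 did not. stg, the mitotic activator that paces the later divisions, was at 341, 274, 252, 305 and 311 RPM, with overlapping blocks. twe, its meiotic relative, was at 486, 436, 627, 126 and 187 RPM, with 2-3 h above both early libraries.

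The 10 pioneer and insulator factor genes had a median of 0.32, with 0 limma calls and 1 edgeR call higher, beside 0.822% and 3.06% of all genes. zld, which encodes Zelda, was at 603, 454, 933, 1131 and 745 RPM (limma adjusted p = 0.136). Its late libraries lay above both early ones. Dref, which binds housekeeping promoters, was at 752, 988, 1082, 1579.8 and 1841 RPM (adjusted p = 0.174), again with no overlap. Clamp, a factor of GA-rich sites, was at 531, 473, 656, 271 and 502 RPM. Cp190, an insulator protein, was at 276, 354, 424, 334 and 284 RPM. Both of these overlapped between blocks. The edgeR call was grh, an epithelial factor, at 4.36, 7.07, 27.4, 87.7 and 39.4 RPM (edgeR adjusted p = 0.0459).

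Of 8 histone variant and chromatin assembly genes 1 fell, beside 2.22% of all genes, and the median was 0.60. Nap1, a histone chaperone, was at 98.5, 98.0, 34.5, 23.0 and 21.6 RPM (-1.89 ± 0.37, SE; limma adjusted p = 0.0499). BigH1, the embryonic linker histone, was at 913, 839, 700.2, 271 and 104 RPM (adjusted p = 0.181), lower in each successive window and not called.

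Of all genes limma called 0.822% higher and 2.22% lower, and edgeR 3.06% and 4.93%. Of the 80 cytoplasmic ribosomal protein genes 0 were called by either test, and their median was 0.26. Together they took 65926 and 57567 RPM at 0-2 h and 74570 to 92362 RPM at 2-5 h, so their summed share was larger in every late library. RpL40 was at 7144, 7349, 10784, 9962 and 16223 RPM. RpL37-1 was at 3006, 2741, 4545, 3682 and 6761 RPM. The blocks of both did not overlap. RpS20 was at 6307, 4716, 7809, 5214 and 8667 RPM, and its blocks overlapped.

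The 32 tested proteasome genes had a median of -0.55. limma called 0 of them and edgeR 1 lower, beside 2.22% and 4.93% of all genes. In 13 of the 32 all late libraries were below both early ones, as in 32.6% of all genes. Prosbeta5 was at 774, 983, 1199, 242 and 531 RPM. Prosbeta4 was at 658, 737, 965, 429 and 639.9 RPM. Prosalpha4 was at 372, 402, 615, 339 and 165 RPM. In these 3 the highest library was 2-3 h. Rpt5, of the regulatory particle, was at 892, 879, 438, 370.1 and 480.0 RPM, with all late libraries below both early ones.

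Markers of differentiated cells were fixed to see what else the embryos could hold. Of 8 tested late cuticle genes 0 were called by either test, and the median was 0.08. Over all genes limma called 0.822% higher and 2.22% lower, and edgeR 3.06% and 4.93%. CG13159 was at 142, 122, 76.8, 223 and 235 RPM. CG30457 was at 97.8, 59.6, 91.0, 243 and 2.54 RPM. CG15212 was at 27.5, 30.8, 23.5, 133 and 0 RPM. The last 2 were highest at 3-4 h and lowest at 4-5 h, and so was Cpr47Eg, at 36.9, 18.4, 42.3, 75.7 and 3.81 RPM. In the muscle and neuron list 5 of 14 were tested, with a median of 0.98. Syx1A, a syntaxin of general use, was at 673, 1056, 1208, 1627 and 2338 RPM and made up most of that list's sum of 717 to 1090 RPM at 0-2 h and 1257 to 2490 RPM at 2-5 h. Act87E was at 11.1, 8.98, 8.62, 65.3 and 87.6 RPM. Act57B was at 12.7, 10.1, 14.9, 30.7 and 7.62 RPM. elav, a marker of neurons, was at 2.06, 3.20, 7.84, 47.7 and 43.2 RPM and passed with edgeR (adjusted p = 0.0487).

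Of the hemocyte, gut and trachea markers 2 were tested. srp, a GATA factor gene of hemocytes, was at 12.5, 23.3, 54.1, 345 and 281 RPM (edgeR higher, adjusted p = 0.0488). crq, a hemocyte receptor gene, was at 161, 149, 56.5, 26.3 and 24.1 RPM (edgeR lower, adjusted p = 0.0467). The markers Hml and betaTry had 0 reads in all 5 libraries.

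Gene structure and chromosome took no part in the calls. Single-exon genes were 29.4% of the genes called higher by limma and 12.3% of those called lower, against 8.94% of those tested, and in the edgeR sets they were 18.5% and 9.71%. Genes not coding for protein were 11.8% of those higher and 0% of those lower, against 1.74%. The median gene length was 2898 bp for the limma rises and 4767 bp for the edgeR rises, against 2774 bp for all tested. Of the genes called lower by limma 28.0% were on the X chromosome, which carried 16.8% of those tested. By arm, 3.69% of tested X genes were called lower, against 1.45% to 2.75% on 2L, 2R, 3L and 3R. The corresponding edgeR shares were 6.73% on X and 3.59% to 5.93% on the other arms. The median log2 fold change was -0.42 on X and -0.22 to -0.30 on the others. No test of these shares was made.

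The 18 later windows did not enter the calls. Of the 143 genes that fell, 121 had their highest level of all 23 windows in the first 5 h. In 68 of the 143 a window after 5 h reached at least 50% of that level, and in 18 none reached 10%. Of the 53 genes that rose, 23 had their highest level in the first 5 h, and in 47 a later window reached at least 50% of it.

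The same comparison was made on single promoters. Of 8078 TSCs that reached at least 10 RPM, limma called 162 (2.01%) lower and 87 (1.08%) higher, and edgeR 399 (4.94%) and 337 (4.17%). The blocks of all 249 limma calls did not overlap, and the median over all TSCs was -0.20. Without 2-3 h limma called 1722 lower and 1140 higher, and without any other single library 0, with 817 to 2038 TSCs at an unadjusted p under 0.05. Of the 87 TSCs called higher, 54 belonged to genes called higher, 25 to genes that were not called and 8 to no gene. Of the 162 called lower, 134 belonged to genes called lower, 27 to uncalled genes and 1 to none. In no case was a gene called the other way than its TSC. The median width was 77 bp (quartiles 43 and 144 bp) for TSCs called higher, 108.5 bp for those called lower and 100 bp (quartiles 74 and 139 bp) for those tested.

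Promoters assigned to no gene were 2.50% of the TSCs tested, 9.20% of those called higher and 0.617% of those called lower. They took 0.337% and 0.407% of reads at 0-2 h and 0.628 to 0.768% at 2-5 h. The largest rise was that of 2R:15959083-15959110, a minus-strand TSC at 1.82, 2.45, 20.4, 58.7 and 41.9 RPM (log2 fold change 3.61 ± 0.58, SE; limma adjusted p = 0.0431). Next came 2L:20486524-20486647, a plus-strand TSC at 7.26, 13.4, 83.9, 97.1 and 208 RPM (log2 fold change 3.46 ± 0.52, SE; limma adjusted p = 0.0431). The smallest rise of these 3 was that of X:5411409-5411533, a minus-strand TSC at 0.726, 2.58, 18.0, 28.5 and 22.9 RPM (log2 fold change 3.26 ± 0.58, SE; limma adjusted p = 0.0431). These TSCs were picked from calls whose blocks do not overlap, so every late library lay above both early ones by that choice. Those on 2R and X were under 10 RPM in both early libraries and were tested only through 2-5 h. The 1 fall was that of 3R:12254021-12254035, a plus-strand TSC at 112, 88.7, 14.9, 11.5 and 7.62 RPM (log2 fold change -3.07 ± 0.45, SE; limma adjusted p = 0.0431).

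A change of promoter within a gene was tested as the log2 ratio of the reads of its 2 most abundant TSCs, in 950 genes with enough reads. Both TSCs had to reach at least 10 RPM in at least 1 of the 5 libraries. Where a TSC did so in 1 block alone, the filter itself favours a change of the ratio. limma called 10 (1.05%), all at an adjusted p of 0.0468, with ratio changes of 3.82 to 6.90 in size. mus201 and Chrac-14 share the TSCs compared, so these are 9 pairs. Without 2-3 h limma called 202, and without any other single library 0, with 72 to 151 at an unadjusted p under 0.05. In Grip84, a minus-strand gene for a protein of the gamma-tubulin ring complex, the TSC at X:19459423-19459505 was at 159, 65.4, 11.0, 9.32 and 7.62 RPM. The upstream one, at X:19459746-19459823, was at 0.363, 0.544, 1.57, 7.13 and 11.4 RPM, which is 2 to 13 reads in each library. The downstream TSC was the larger one until 3-4 h and the upstream one at 4-5 h, and the log2 ratio of the first to the second fell by 6.90 (SE 1.03). Downstream and upstream reads were 17 and 13 at 3-4 h and 6 and 9 at 4-5 h, too few to settle which was larger there.

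Pfrx, the enzyme that makes and removes an activator of glycolysis, had an upstream TSC at X:19389485-19389660 with 328, 266, 58.8, 98.2 and 136 RPM. Its downstream TSC, at X:19399875-19400303 on the same plus strand, was at 9.08, 26.2, 51.7, 240 and 241 RPM. The downstream start was the larger from 3-4 h on, and the log2 ratio of upstream to downstream fell by 4.90 (SE 0.79). In FBgn0262707 it was the downstream TSC, at 3L:15102370-15102532, that was lower at 2-5 h, at 58.2, 46.5, 0.784, 3.29 and 0 RPM. The late values stand for 1, 6 and 0 reads. The upstream TSC of this gene, at 3L:15091224-15091322, was at 24.8, 23.3, 19.6, 33.4 and 50.8 RPM. The log2 ratio of upstream to downstream rose by 5.67 (SE 0.95). Hs2st, a heparan sulfate sulfotransferase, had a main TSC at 2L:19444678-19444789 with 356, 277, 32.9, 155 and 91.4 RPM. Its second, at 2L:19444980-19445033, was at 0.484, 1.16, 0.784, 9.32 and 10.2 RPM (change of the log2 ratio -4.63, SE 0.78). These values stand for 4, 17, 1, 17 and 8 reads. Here the main TSC stayed the larger throughout. The upstream TSC of Grip84 and the second TSC of Hs2st reached 10 RPM only at 4-5 h. The downstream TSC of FBgn0262707 did so only at 0-2 h. The filter thus favoured the direction of these changes.

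**Figure D5:**
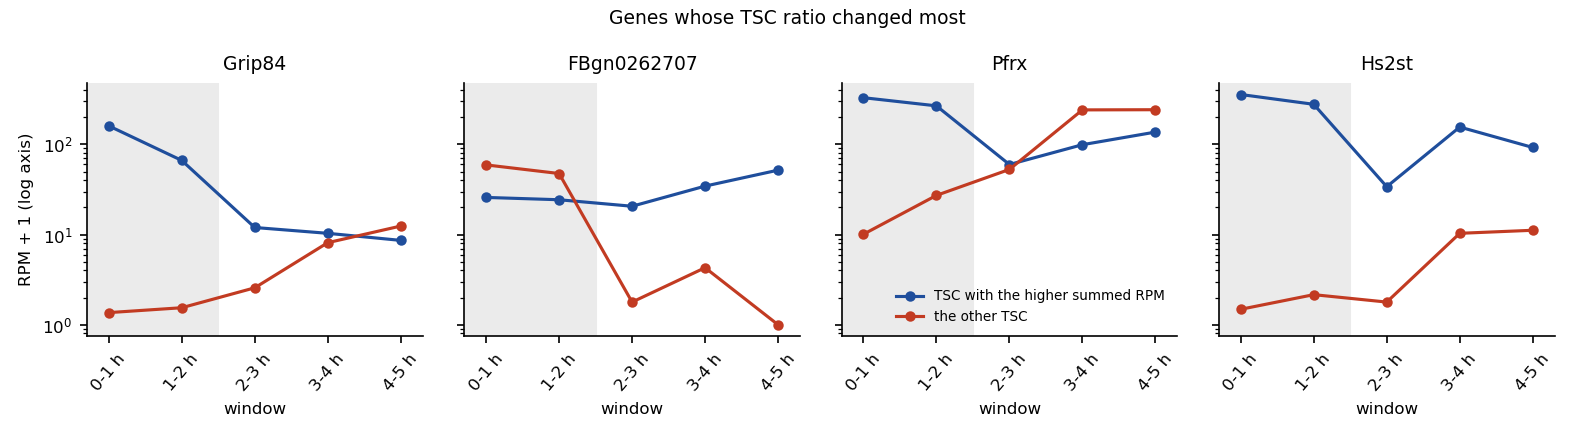
RPM + 1 on a log axis of both TSCs of the 4 genes with the largest called changes in TSC ratio, by window, 1 library per point, with 0-2 h shaded. In Pfrx the lines cross between 2-3 h and 3-4 h, where the downstream TSC goes from 51.7 to 240 RPM.

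hb, a gap gene with a maternal supply, is known for a maternal and a zygotic promoter and was examined for that reason. Its upstream TSC, at 3R:4523481-4523640 on the minus strand, was at 113, 106, 44.7, 115 and 67.3 RPM. Its downstream TSC, at 3R:4520305-4520323, was at 86.3, 119, 454, 208 and 21.6 RPM. The downstream start was far the larger at 2-3 h, also the larger at 1-2 h and 3-4 h, and the smaller at 0-1 h and 4-5 h. The change of the log2 ratio of downstream to upstream between the blocks was 0.97 (SE 1.32, limma adjusted p = 0.811). The gene total was at 199, 226, 499, 323 and 90.2 RPM (adjusted p = 0.868).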

How the data were processed

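RNA 5' ends were profiled by RAMPAGE in 23 staged collections of whole embryos. All samples carried a barcode from reverse transcription on and were pooled into 1 library and sequencing lane. The submitters' processing notes name STAR (version not given in the sources used here) and the dm3 build (release 5). The deposited values are RPM, which the authors made by counting 5' ends in TSCs, scaling by the library's TSC reads and summing TSCs per gene. No count table was used. Values were divided by what 1 read is worth in each library, and 100% came out whole within 0.001 of a read. A row of TSCs with no gene (0.337 to 0.768% of reads) stayed out of gene tests. Symbols were matched for 10253 of 10622 genes. The exons and lengths come from Ensembl, and its coordinates were not used.

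Genes or TSCs with at least 10 RPM in 1 of the 5 libraries were tested with limma 3.58.1 (trend and robust, R 4.3.3) on log2(RPM + 1), so fold changes of low genes are understated. Benjamini-Hochberg adjusted p was held to 0.05. edgeR 4.0.16 (quasi-likelihood) and DESeq2 1.42.0 were run on the recovered reads as alternatives. An exact permutation test of 2 against 3 libraries cannot go below a two-sided p of 0.2. TSC ratios used 0.5 added reads. They needed at least 10 reads in each library for the 2 TSCs together, so a single TSC could have fewer. P-values measure the spread between successive windows of 1 series, and the first replicate series was not analysed here. The limma and edgeR fits were also run on simulated gene counts. These had independent replicates with no trend within a block, so they do not test calls made from successive windows.

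The members and gene lists were chosen with earlier results of these data known. Named genes are the 10 largest called rises and falls with a higher block mean of at least 50 RPM and no overlap of the blocks, the same for up to 3 TSCs with no gene in each direction at 10 RPM, and the 4 largest called TSC ratio changes, then, for each list, up to 4 called members with the highest mean RPM, or up to 4 members of highest mean RPM where none was called, with hb, roX1 and lncRNA:CR43887. 1 gene that the rule names is not reported here. Genes outside it and all window classes were chosen after the values were seen. The names Yp1 to Yp3, vas, wg, da and some others of the lists were not matched and are not analysed here. A planned description of promoter motifs is not included here.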

Additional observations from a re-analysis of the deposited data

How the results depend on the processing

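Over the 18 other settings each of the 43 called genes that the naming rule gave kept its direction. Their blocks do not overlap, so leaving out a library could not reverse a direction, and this is no support for the calls. Of the 43, limma still called 1 with TMM scaling, 1 with DESeq2 size factors, 1 with a pseudocount of 0.5 and 0 with no filter. All 43 were called with a pseudocount of 5, by edgeR and by DESeq2. Called genes named after their values were seen were not run. The counts moved. With TMM scaling limma called 0 genes higher and 4 lower, with DESeq2 size factors 0 and 4 (TSCs 35 and 45), and with a pseudocount of 0.5 it called 0 and 5 (TSCs 37 and 61). A pseudocount of 5 gave 107 genes higher and 406 lower and 341 TSCs lower. With no filter there were 0 calls in either direction for genes and TSCs, with 2123 genes and 3949 TSCs at an unadjusted p under 0.05, since 9250 genes and 20127 TSCs were then tested. A maximum of at least 25 RPM gave 95 genes lower, 51 TSCs higher and 84 lower. Thinning every library to the shallowest gave 125 genes higher, 235 lower and 166 TSCs higher. edgeR with TMM called 197 genes higher and 318 lower (TSCs 337 and 399), edgeR with library totals 212 and 384 (336 and 405), and DESeq2 784 and 656 (1122 and 772). A fit of all 23 libraries in 8 blocks gave 579 and 1168 (922 and 1324), and a straight line over the windows gave 491 and 783 (820 and 1004). edgeR, DESeq2 and the pseudocount of 5 included all 196 gene calls and all 249 TSC calls. For the TSC ratio, 1 added read gave 19 calls and a minimum of 25 RPM gave 0, with 110 genes at an unadjusted p under 0.05. Leaving out 1 library at a time, which leaves a 0-2 h block of 1 library in some runs, gave 0 to 773 genes higher, 0 to 1552 lower, 0 to 1140 TSCs higher, 0 to 1722 lower and 0 to 202 ratio calls. The upper end is without 2-3 h in each case, and the cause was not tested. A minimum of 2-fold changed no count. No paired analysis was possible because the blocks hold different windows and share no replicate numbers in the labels.

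Depth limits the late libraries, where 3 reads came to 1.65 to 3.81 RPM against 0.204 to 0.363 RPM at 0-2 h, so a late level near 0 is a bound. Each window is 1 library of 1 series, the adjusted p values of the calls lie just under the threshold, and block means hide genes with a peak in a single window. RPM is relative to the library total, and the absolute amount of RNA per embryo was not measured.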

Other observations

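Genes that were at least 4-fold above both early libraries at 3-4 h and 4-5 h, but not at 2-3 h, formed the largest window class (321 genes), and those named here were chosen after their values were seen. neur, a ubiquitin ligase of Notch signalling, was at 278, 319.9, 740.2, 2229 and 1501 RPM in the 5 windows in order. Sdc, the heparan sulfate proteoglycan syndecan, was at 268, 349, 536, 2299 and 1649 RPM. spi, an EGF receptor ligand, was at 118, 153, 140.3, 717 and 1126 RPM. In all 3 the step into 3-4 h was the largest between successive windows. Socs36E, a negative regulator of JAK/STAT signalling, was at 50.3, 66.4, 193, 487 and 616 RPM. With edgeR neur and Socs36E passed (adjusted p = 0.0487 and 0.0434), and Sdc and spi did not (0.0671 and 0.108).

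A class of 110 genes had lost at least 75% of both early levels at 4-5 h and in no earlier window. The 3 named here were again chosen after their values were seen and do not describe the class. wisp, a cytoplasmic poly(A) polymerase, was at 753, 847, 932, 335 and 187 RPM. gwl, the Greatwall kinase, was at 851, 968, 430.4, 245 and 179 RPM. Pop2, a deadenylase subunit, was at 501, 685, 467, 261 and 124 RPM. All 3 were lower at each step from 2-3 h to 4-5 h, and the 2-3 h level of wisp was above both early ones. None was called by limma (adjusted p = 0.317, 0.0606 and 0.188).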
